A study of Mus musculus with 28 samples.

Results

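The Hsp70 family of molecular chaperones was followed across mouse bone marrow progenitors and leukemic cells. Its members here are Hspa1a, Hspa1b, Hspa2, Hspa4, Hspa5, Hspa8, Hspa9 and Hspa14. They were taken as every probe set whose platform annotation names exactly 1 gene, that gene being a member, which gave 8 of 12393 genes and 20 of 20380 probe sets. The rule itself uses no measured value. RNA was measured on 28 Affymetrix arrays in an experiment on sorted cells (22 arrays) and an experiment on transduced cells (6 arrays), which the design text treats as not comparable because the RNA was amplified on different days.

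All samples came from bone marrow, with about 10000 sorted cells and about 50 ng of total RNA behind each array, per the labels. L-GMP (6 arrays) were leukemic cells sorted as lineage-negative, sca- and kit+ with FCR+ and CD34+, that is, a phenotype close to that of granulocyte-macrophage progenitors by label. The normal sorts were a fraction enriched for hematopoietic stem cells (HSC, 5 arrays, lineage-negative, sca+ and kit+) and 3 lineage-negative, sca- and kit+ progenitors. These were megakaryocyte-erythroid progenitors (MEP, 3 arrays, FCR- and CD34-), common myeloid progenitors (CMP, 4 arrays, labelled FCR+ and CD34low) and granulocyte-macrophage progenitors (GMP, 4 arrays, FCR+ and CD34high). In the transduced experiment GMP expressed the leukemia fusion MLL-AF9 (3 arrays) or the green fluorescent protein GFP (3 arrays). The labels give no strain, age, vector, or number of animals or leukemias. Nothing in them says that replicates were separate mice, and the spread on which each p-value rests may therefore be technical.

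Hsp70 chaperones bind exposed hydrophobic stretches of unfolded proteins and release them in a cycle driven by ATP, with DnaJ proteins that deliver clients and exchange factors that reset the cycle. Inducible members are switched on by heat shock factors when proteins misfold, whereas constitutive members serve everyday folding in the cytosol, the endoplasmic reticulum and the mitochondria. In human erythroid precursors the inducible cytosolic form is known to protect the transcription factor GATA1, and the mitochondrial form to be needed for maturation.

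Levels are log2 scaled intensities and changes are differences of these, and levels of different probe sets were not compared. Sorted arrays of every group had 3'/5' signal ratios of the Actb and Gapdh control probe sets between 2.60 and 3.33 (log2). L-GMP lay at 2.72 to 2.95, within the range of GMP at 2.60 to 3.33. HSC lay at 2.93 to 3.27, CMP at 2.92 to 3.06 and MEP at 2.99 to 3.18. All L-GMP arrays were thus below all MEP arrays, and most were below all HSC and CMP arrays. Of the sort markers, Fcgr3, an Fc receptor gene, averaged 9.65 ± 0.29 in L-GMP and 9.51 ± 0.35 in GMP (SD, n = 6 and 4). It was at the floor, the lowest value allowed, on all 5 HSC and all 3 MEP arrays and between 5.27 and 5.72 on the CMP arrays, although CMP were labelled FCR+. Fcgr2b, another Fc receptor gene, averaged 8.58 ± 0.16 in CMP, with 0 arrays at the floor. That was above HSC at 7.45 ± 0.23 and MEP at 6.95 ± 0.54 and below GMP. Of the 4 sort markers measured, 2 fell and 1 rose in L-GMP against GMP. Cd34 averaged 8.08 ± 0.41 in L-GMP and 8.94 ± 0.14 in GMP, a change of -0.87 ± 0.24 (adjusted p = 0.00756) without overlap, although both were sorted as CD34 positive. Kit averaged 8.24 ± 0.20 in L-GMP and 8.72 ± 0.17 in GMP (adjusted p = 0.00489), and Fcgr2b 10.79 ± 0.27 in L-GMP and 10.17 ± 0.25 in GMP (adjusted p = 0.0105). Cd34 averaged 9.57 ± 0.26 in CMP, labelled CD34low, above GMP, labelled CD34high. Ly6a, the gene of the sca antigen, was not among the probe sets with 1 gene, so that label of HSC was not checked. In bulk RNA, fewer cells of a type and less RNA per cell cannot be told apart.

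Most members of the family were lower in L-GMP, the inducible pair by far more than the others. Against GMP, the normal sort with the nearest labelled phenotype, 6 of 8 members fell (Hspa1a, Hspa1b, Hspa4, Hspa5, Hspa8 and Hspa9) and 0 rose, where 33.5% of all tested genes were called, 18.3% lower and 15.2% higher. Against HSC, 6 fell and 2 rose (Hspa2 and Hspa14), with 47.2% of all genes called, 23.8% lower and 23.4% higher. Against MEP, 5 fell and Hspa2 rose, with 45.2% of all genes called, 22.9% lower and 22.3% higher. Against CMP likewise 5 fell and Hspa2 rose, with 39.9% of all genes called, 21.5% lower and 18.4% higher. The L-GMP arrays did not overlap GMP for 6 members, HSC for 5, MEP for 6 and CMP for 6, where 25.5%, 31.6%, 36.9% and 30.6% of all genes did not overlap. The median log2 change of the 8 members was -0.86 against GMP, -0.60 against HSC, -0.76 against MEP and -0.57 against CMP, while the median of all tested genes lay between -0.05 and 0.05. Hspa4 is counted in all 4 by 1 of its 2 kept probe sets, and the other one did not fall in any. Hspa1a and Hspa1b are counted as 2 members, although which copy a probe set reads was not settled. All 8 members passed the filter on low values in the sorted experiment, Hspa2 only through L-GMP and GMP, the groups in which it was high. The 4 comparisons share the L-GMP arrays, and calls are from limma over all 8422 genes at an adjusted p under 0.05.

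**Figure D1:**
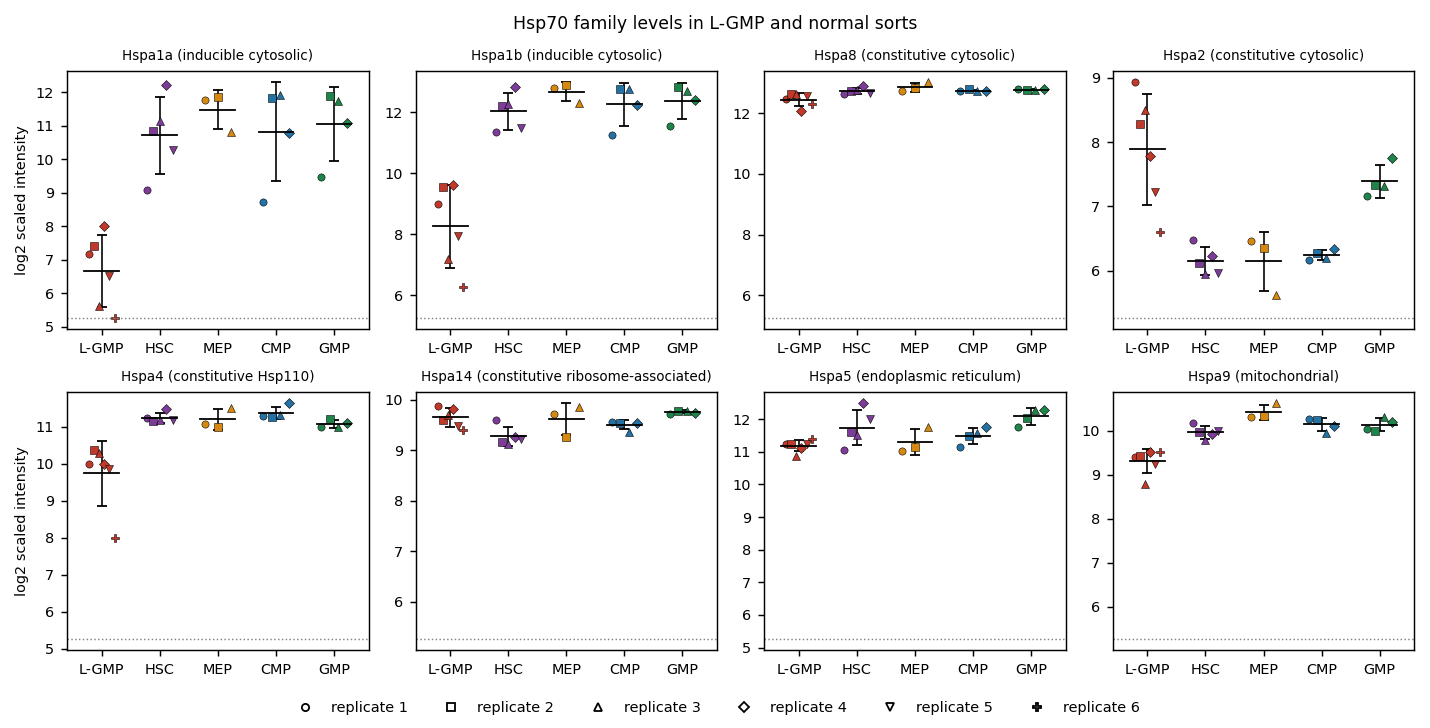
Level (log2 scaled intensity) of each member on the 22 sorted arrays, with L-GMP left of the normal sorts. Points are arrays, marked by replicate number, lines are group means with SD, and the dotted line is the floor of 5.27. All 6 L-GMP arrays lie below every normal array for Hspa1a, Hspa1b, Hspa4 and Hspa9, and Hspa2 is high in L-GMP and GMP.

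The inducible members Hspa1a and Hspa1b encode the cytosolic Hsp70 that accumulates after heat shock and other proteotoxic stress. They are near-identical copies on the minus strand of chromosome 17, so which of the copies a probe set reads was not settled here, and the pair is best read together. Their promoters are shown because the levels from their probe sets moved together, although these may read the same transcripts. RefSeq (GRCm38.p6) places the 250 bases before the start at chr17:34972157-34972406 for Hspa1a and chr17:34959239-34959488 for Hspa1b, both on the minus strand, and capitals mark the match to a 2-unit heat shock element.
Hspa1a: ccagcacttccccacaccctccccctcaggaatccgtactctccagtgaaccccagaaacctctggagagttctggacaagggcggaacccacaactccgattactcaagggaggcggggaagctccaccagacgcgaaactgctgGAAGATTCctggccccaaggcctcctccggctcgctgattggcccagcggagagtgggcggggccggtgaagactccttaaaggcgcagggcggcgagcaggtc
Hspa1b: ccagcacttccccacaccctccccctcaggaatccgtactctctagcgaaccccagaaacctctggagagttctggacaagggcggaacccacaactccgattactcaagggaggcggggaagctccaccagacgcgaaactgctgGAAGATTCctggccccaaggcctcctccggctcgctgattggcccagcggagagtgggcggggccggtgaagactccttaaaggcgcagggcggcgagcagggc
Of the 250 bases, 247 were identical between the windows and 3 differed. The motif GAANNTTC, which reads the same on both strands, had 1 match in each window, beginning 104 bases before the start, and 6.69% of 32851 mouse promoter windows of 250 bases hold it. The reverse arrangement TTCNNGAA and the 3-unit form, GAANNTTC followed by NNGAA, which contains both 2-unit forms, were not matched on either strand of these windows. They are found in 7.17% and 0.466% of all windows. A match is a description of these letters, and promoter entries were matched for 6 of the 8 members.

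Hspa1b, read by 1452318_a_at, lay at 6.27, 8.47 and 9.61 in L-GMP (lowest, median and highest of 6 arrays). The lowest was replicate 6, also the lowest L-GMP array for Hspa1a, Hspa2, Hspa4 and Hspa14 but not for Hspa5, Hspa8 or Hspa9. The normal sorts lay far above, at 11.36, 12.21, 12.25, 12.83 and 11.48 in HSC, 12.79, 12.89 and 12.31 in MEP, 11.25, 12.75, 12.75 and 12.24 in CMP, and 11.53, 12.81, 12.71 and 12.38 in GMP. No L-GMP array reached any normal array, and replicate 1 was the lowest array of HSC, CMP and GMP. The change against GMP was -4.10 ± 0.52 (SE), 17.1-fold lower with an adjusted p of 3.62e-06. It was -3.77 ± 0.49 against HSC, -4.40 ± 0.57 against MEP and -3.99 ± 0.52 against CMP, with adjusted p between 1.59e-06 and 2.59e-06. The other kept Hspa1b probe sets reached the floor in L-GMP, so their levels there are only partly known. For 1427126_at 3 of 6 L-GMP arrays were at the floor and the highest was 6.57, against 8.83 to 10.94 in GMP, and it passed the filter through the normal sorts alone. For 1427127_x_at 1 of 6 was at the floor and the highest was 8.85, against 10.75 to 12.05 in GMP. The suffix x marks probe sets with probes that also match other sequences.

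Hspa1a, read by 1452388_at alone, stood at 5.27, 6.83 and 7.99 in L-GMP, the lowest of the 6 arrays being at the floor. It stood at 9.08, 10.83, 11.13, 12.23 and 10.28 in HSC, 11.77, 11.86 and 10.82 in MEP, 8.73, 11.82, 11.91 and 10.79 in CMP, and 9.46, 11.88, 11.73 and 11.08 in GMP. All L-GMP arrays lay below all normal arrays, and the normal sorts spread over more than the difference between any pair of their means. Against GMP it fell by 4.38 ± 0.67 (SE), or 20.8-fold (adjusted p = 3.09e-05). For the array at the floor only an upper bound of the level is known. The changes against HSC, MEP and CMP were -4.05 ± 0.63, -4.82 ± 0.73 and -4.15 ± 0.67. Hspa1a and Hspa1b correlated with r = 0.98 over the 22 arrays and 0.88 after group means were removed. This describes arrays that share their groups and their RNA preparation, and probe sets that may read the same transcripts.

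Among the normal sorts neither inducible member was called in any of the 6 contrasts. The order of Hspa1b means was MEP, GMP, CMP and HSC (12.66 ± 0.31, 12.36 ± 0.58, 12.25 ± 0.71 and 12.03 ± 0.61, SD), and neighbours in that order differed by 0.11 to 0.30 with adjusted p of 0.767 to 0.947. Hspa1a followed the same order at 11.48 ± 0.58, 11.04 ± 1.11, 10.81 ± 1.48 and 10.71 ± 1.15, with adjusted p of 0.731 to 0.960 between neighbours.

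Genes of the immediate early and dissociation response, such as Fos, Jun and Egr1, which cells switch on within minutes of handling or stimulation, varied over the same arrays. The mean log2 level of the 24 tested genes of that list was 6.77 to 7.65 in L-GMP, against 8.07, 9.62, 9.49, 10.59 and 10.17 in HSC, 8.99, 8.97 and 9.43 in MEP, 6.94, 9.47, 9.40 and 9.35 in CMP, and 6.73, 8.74, 8.36 and 8.31 in GMP. Replicate 1 of CMP thus lay within the range of L-GMP for this list, and replicate 1 of GMP just below it. On those same arrays Hspa1b was at 11.25 and 11.53 and Hspa1a at 8.73 and 9.46. The highest L-GMP arrays were at 9.61 for Hspa1b and 7.99 for Hspa1a. Those CMP and GMP arrays were also the lowest of their sort for each of these genes. Over the 22 arrays the list's level correlated with Hspa1a (r = 0.77, and 0.70 after group means were removed) and Hspa1b (r = 0.68 and 0.36). Without replicate 1 of HSC, CMP and GMP, an alternative chosen after seeing the data, the change of Hspa1b against GMP was -4.37 and that of Hspa1a -4.90. The part of this response in the difference between L-GMP and the normal sorts was not tested.

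**Figure D2:**
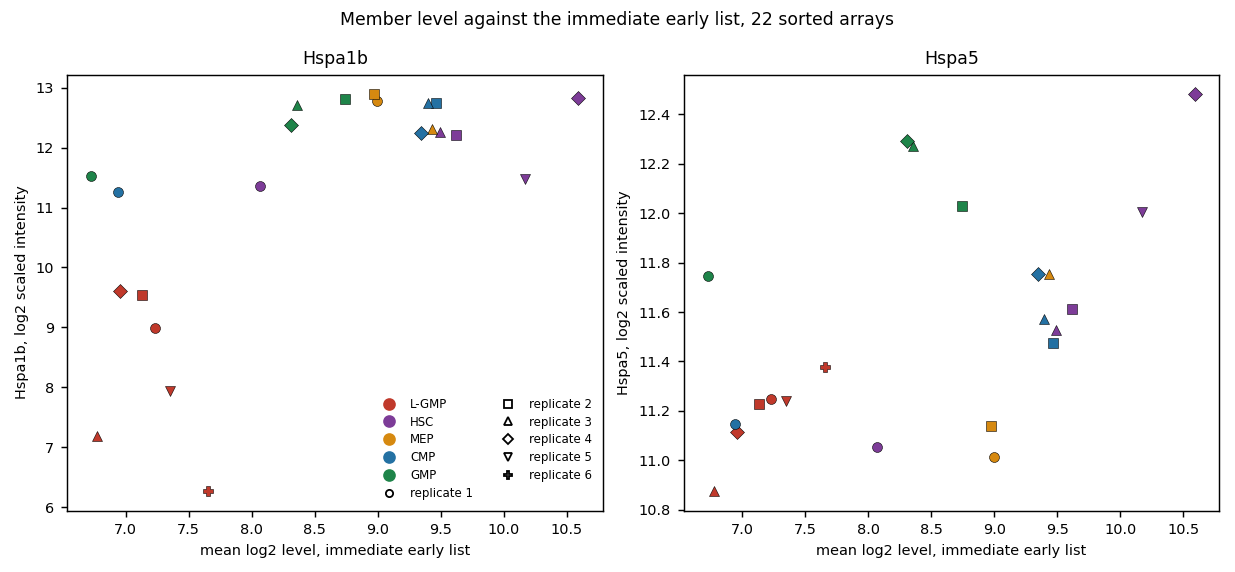
Level of Hspa1b (left) and Hspa5 (right) against the mean log2 level of the immediate early list, 1 point per sorted array, coloured by group and shaped by replicate number. Replicate 1 of CMP and GMP have low list levels like those of L-GMP. Their Hspa1b levels (11.25 and 11.53) are the lowest of their sorts, and the highest L-GMP level is 9.61.

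Hspa8 encodes Hsc70, the constitutive cytosolic chaperone that also uncoats clathrin vesicles and takes part in chaperone-mediated autophagy. Its main probe set 1455789_x_at lay at 12.08, 12.52 and 12.64 in L-GMP (lowest, median and highest), against 12.61 to 12.88 in HSC, 12.71 to 13.01 in MEP, 12.72 to 12.79 in CMP and 12.75 to 12.79 in GMP. The L-GMP arrays lay below every MEP, CMP and GMP array and overlapped HSC. By this probe set the decrease was small, -0.33 ± 0.10 against GMP (1.25-fold, adjusted p = 0.0123). It was -0.28 ± 0.09 against HSC, -0.40 ± 0.11 against MEP and -0.30 ± 0.10 against CMP. The last of these was not called without replicate 2 of CMP (adjusted p = 0.0501).

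The other Hspa8 probe sets also fell, each by more than the main one against every normal sort. Changes against GMP were -0.54 ± 0.13 for 1420622_a_at (adjusted p = 0.00308 over all probe sets) and -0.50 ± 0.14 for 1420623_x_at. The remaining one, 1431182_at, differed from both. It stood at 6.01, 6.49 and 6.83 in L-GMP, against 7.98, 9.64, 9.56, 10.93 and 9.44 in HSC, 10.06, 9.54 and 8.02 in MEP, 7.21, 9.94, 9.70 and 8.07 in CMP, and 7.70, 9.86, 9.08 and 8.28 in GMP. Its change was -2.28 ± 0.55 against GMP (adjusted p = 0.00296) and -3.06 ± 0.52 against HSC. The L-GMP arrays alone would not have carried 1431182_at past the filter, which it cleared through the normal sorts, where it was high. Over the 22 arrays this probe set followed Hspa1a (r = 0.93) more closely than the main Hspa8 probe set (r = 0.59), and the transcript it reads was not tested.

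Hspa2, a constitutive cytosolic member best known from male germ cells, went the other way. It lay at 6.61, 8.03 and 8.93 in L-GMP, against 6.47, 6.12, 5.95, 6.23 and 5.97 in HSC, 6.46, 6.36 and 5.62 in MEP, 6.17, 6.28, 6.20 and 6.33 in CMP, and 7.16, 7.33, 7.31 and 7.75 in GMP. Every L-GMP array exceeded every HSC, MEP and CMP array, while L-GMP spread around GMP. Hspa2 rose by 1.74 ± 0.29 against HSC (3.33-fold, adjusted p = 3.60e-05), by 1.74 ± 0.34 against MEP and by 1.64 ± 0.31 against CMP. Against GMP the change was 0.50 ± 0.31 with an adjusted p of 0.235, and without replicate 6 of L-GMP, its lowest array, it was 0.75 with an adjusted p of 0.0256. Its only probe set, 1417101_at, exceeded the median of the experiment on 9 arrays, all of L-GMP or GMP, so it passed the filter through the groups in which it was high.

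Among the normal sorts Hspa2 was higher in GMP than in each other sort. The change was -1.24 ± 0.32 for HSC minus GMP (adjusted p = 0.00368), -1.24 ± 0.36 for MEP minus GMP (adjusted p = 0.0140) and -1.14 ± 0.34 for CMP minus GMP (adjusted p = 0.0229). HSC, MEP and CMP means lay within 0.10 of each other. The CMP comparison was not called without replicate 1 or 3 of CMP or replicate 4 of GMP (adjusted p = 0.0520, 0.0537 and 0.0769), nor the MEP comparison without replicate 3 of MEP (adjusted p = 0.0866). With a floor at the 50th percentile all 3 changes were -0.64 and none was called.

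Hspa4, a constitutive Hsp110-type relative that acts as an exchange factor for Hsp70, was read by a pair of probe sets that disagreed. By 1435194_at, which represents the gene in the sorted experiment, L-GMP lay at 8.0, 9.99 and 10.36, against 11.23, 11.14, 11.19, 11.48 and 11.18 in HSC, 11.08, 10.98 and 11.51 in MEP, 11.29, 11.26, 11.31 and 11.63 in CMP, and 10.99, 11.20, 11 and 11.09 in GMP. All L-GMP arrays were below all normal arrays by this probe set. The change was -1.33 ± 0.30 against GMP (2.51-fold lower, adjusted p = 0.00151), -1.50 ± 0.28 against HSC, -1.45 ± 0.33 against MEP and -1.63 ± 0.30 against CMP. Without replicate 6 of L-GMP, the array at 8.0, these were -0.98, -1.15, -1.10 and -1.28 and all were called.

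By 1416146_at, Hspa4 lay between 9.86 and 10.26 in L-GMP, against 9.52 to 9.89 in HSC, 10.10 to 10.43 in MEP, 9.80 to 10.04 in CMP and 10.23 to 10.29 in GMP. This probe set was higher in L-GMP than in HSC (0.36 ± 0.09, adjusted p = 0.00306), opposite to the other. Its changes were -0.19 ± 0.10 against GMP, -0.18 ± 0.11 against MEP and 0.12 ± 0.10 against CMP (adjusted p = 0.166, 0.194 and 0.365), none of them called. The pair had r = -0.08 over the 22 arrays. All 4 calls of Hspa4 as lower in L-GMP thus rest on 1435194_at, and the sign against HSC and CMP depends on the probe set. Another one, 1416147_at, did not pass the filter.

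Hspa14, a constitutive Hsp70 of the ribosome-associated complex that receives nascent chains, stood at 9.41, 9.65 and 9.88 in L-GMP, against 9.61, 9.16, 9.12, 9.26 and 9.22 in HSC, 9.71, 9.26 and 9.87 in MEP, 9.56, 9.54, 9.37 and 9.54 in CMP, and 9.73, 9.78, 9.78 and 9.74 in GMP. The L-GMP arrays overlapped every normal sort. It rose by 0.38 ± 0.11 against HSC (1.30-fold, adjusted p = 0.00785) and its other probe set by 0.52 ± 0.14. Changes of -0.11 against GMP, 0.04 against MEP and 0.15 against CMP had adjusted p of 0.367 to 0.850. Among the normal sorts it was lower in HSC than in GMP (-0.49 ± 0.12, adjusted p = 0.00312).

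**Figure D3:**
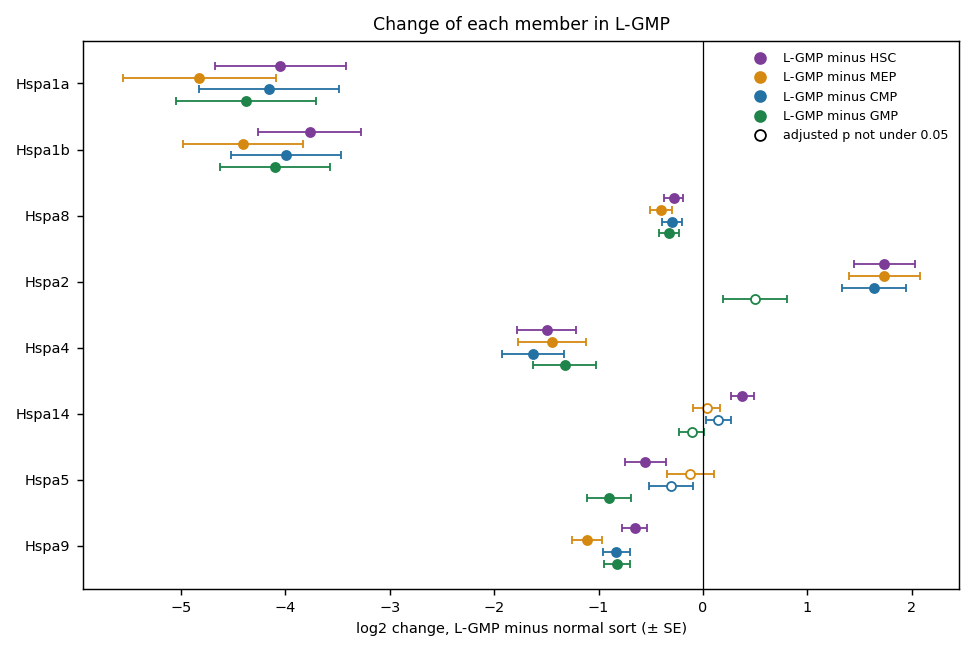
Log2 change of each member in L-GMP minus each normal sort, with SE bars, filled where the adjusted p was under 0.05. The inducible pair lies between -4.82 and -3.77, Hspa2 is the member with positive called changes against HSC, MEP and CMP, and the remaining members lie between -1.63 and 0.38.

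**Figure D4:**
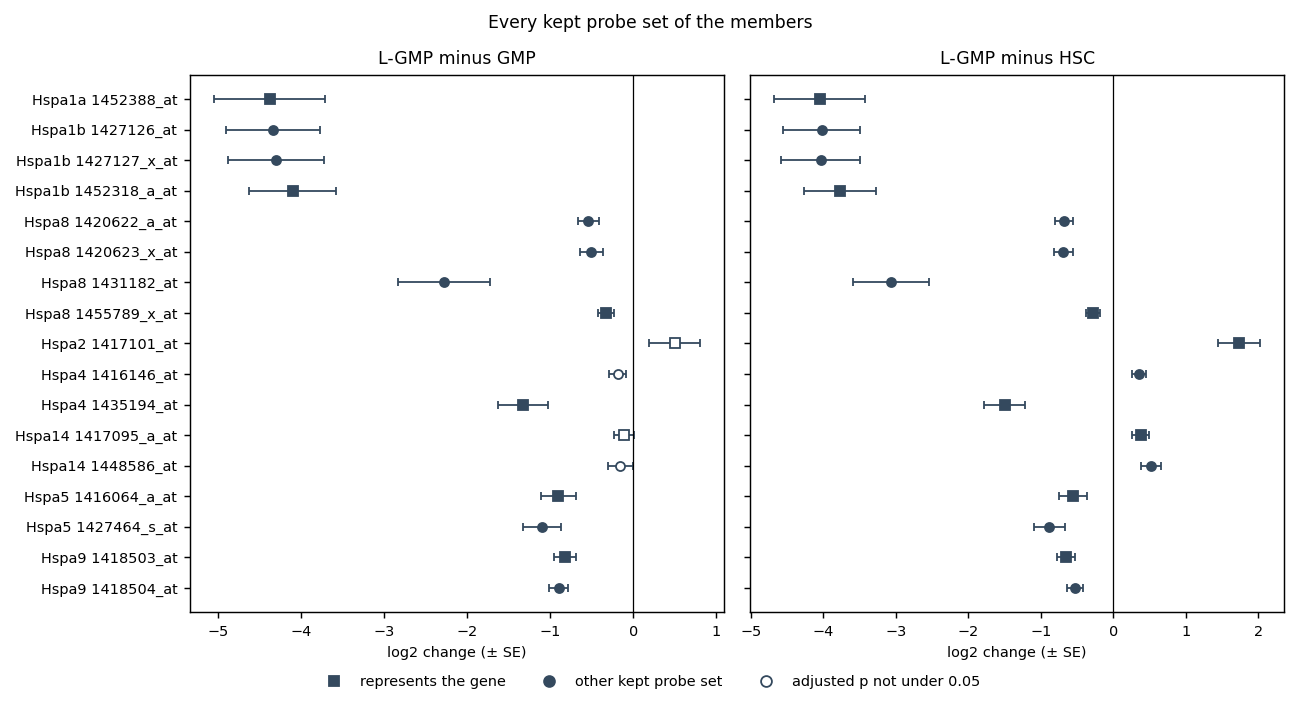
Log2 change with SE of all 17 kept member probe sets in L-GMP minus GMP (left) and L-GMP minus HSC (right), with squares for the probe set that represents the gene and open symbols where the adjusted p over all probe sets was not under 0.05. Against GMP 13 of the 17 were called, all lower, with 1427126_at at the floor on 3 L-GMP arrays, and the Hspa4 pair lies on opposite sides of 0 against HSC.

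Counted by probe set, 13 of 17 kept member probe sets were called in L-GMP against GMP, all lower, where 32.8% of all probe sets were called, 18.5% lower and 14.3% higher. Against HSC, 13 were lower and 4 were higher, with 47.4% of all called, 23.8% lower and 23.6% higher. Those higher were both Hspa14 probe sets, the Hspa2 probe set and 1416146_at of Hspa4. Against MEP 11 were lower and 1 higher, with 44.6% of all called, 22.9% lower and 21.7% higher. Against CMP 11 were lower and 1 higher, with 39.2% of all called, 21.4% lower and 17.8% higher. Most members have several of these probe sets, so the counts are not of independent readings. The counts also include 1427126_at and 1431182_at, which cleared the filter only because of the normal sorts, where they were high.

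Hspa5 encodes BiP, the Hsp70 of the endoplasmic reticulum, which holds the sensors of the unfolded protein response in check and is a classical target of that response. Its promoter is shown for the element through which that induction runs. RefSeq (GRCm38.p6) places the window at chr2:34771840-34772089 on the plus strand, and capitals mark the endoplasmic reticulum stress element.
Hspa5: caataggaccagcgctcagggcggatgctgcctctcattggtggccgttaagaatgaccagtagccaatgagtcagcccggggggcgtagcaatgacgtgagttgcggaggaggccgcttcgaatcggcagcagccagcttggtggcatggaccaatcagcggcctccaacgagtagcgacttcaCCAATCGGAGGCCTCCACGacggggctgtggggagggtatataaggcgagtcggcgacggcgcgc
The motif, CCAAT and CCACG with 9 bases of any kind between them, was searched on both strands and began 65 bases before the start, and 0.113% of all mouse windows hold it.

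The main Hspa5 probe set, 1416064_a_at, lay at 10.88, 11.23 and 11.38 in L-GMP, against 11.05, 11.61, 11.53, 12.48 and 12.00 in HSC, 11.01, 11.14 and 11.75 in MEP, 11.15, 11.48, 11.57 and 11.75 in CMP, and 11.75, 12.03, 12.27 and 12.29 in GMP. L-GMP lay wholly below GMP and overlapped HSC, MEP and CMP. The change against GMP was -0.90 ± 0.21 (1.87-fold, adjusted p = 0.00195), and the second probe set gave -1.10 ± 0.23. Against HSC it was -0.55 ± 0.20 (adjusted p = 0.0243), a call lost without replicate 4 of HSC (-0.37, adjusted p = 0.0978), replicate 5 of HSC (-0.49, adjusted p = 0.0670) or replicate 3 of L-GMP (-0.49, adjusted p = 0.0552). Against MEP and CMP the changes were -0.12 and -0.31 (adjusted p = 0.713 and 0.271). Within groups Hspa5 moved with the immediate early list, at r = 0.79 after group means were removed (22 arrays), and the part of that response in the HSC difference was not tested.

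Among the normal sorts Hspa5 was lower in MEP than in GMP (-0.78 ± 0.25, adjusted p = 0.0212). That call was lost without replicate 1 or 2 of MEP (adjusted p = 0.103 and 0.0878) or replicate 3 or 4 of GMP (adjusted p = 0.0565 and 0.0577). The order of means was GMP, HSC, CMP and MEP (12.08 ± 0.26, 11.74 ± 0.54, 11.49 ± 0.25 and 11.30 ± 0.40, SD), and neighbours had adjusted p of 0.215 to 0.695.

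Hspa9, mortalin, is the mitochondrial Hsp70 that pulls precursor proteins through the inner membrane. It stood at 8.78, 9.41 and 9.53 in L-GMP, against 10.18, 9.96, 9.78, 9.92 and 9.98 in HSC, 10.30, 10.34 and 10.62 in MEP, 10.28, 10.24, 9.95 and 10.11 in CMP, and 10.05, 9.98, 10.32 and 10.19 in GMP. Every L-GMP array was below every normal array. Its log2 change was -0.82 ± 0.13 against GMP (1.77-fold, adjusted p = 3.83e-05), -0.65 ± 0.12 against HSC, -1.11 ± 0.14 against MEP and -0.83 ± 0.13 against CMP. The other kept probe set, 1418504_at, gave -0.90 ± 0.12 against GMP and correlated with the main one at r = 0.96. In HSC it was lower than in MEP (-0.46 ± 0.15, adjusted p = 0.0192), a call lost without replicate 3 of MEP (adjusted p = 0.134). The 2 further Hspa9 probe sets did not pass the filter.

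In all, 6 of 48 member differences among the normal sorts were called. The Hspa2 calls among them are of a gene that passed the filter only through L-GMP and GMP, where it was high. HSC minus GMP held 2 (Hspa2 and Hspa14, with 41.2% of all genes called), MEP minus GMP 2 (Hspa2 and Hspa5, 27.5%), CMP minus GMP 1 (Hspa2, 16.8%) and HSC minus MEP 1 (Hspa9, 32.9%). HSC minus CMP and MEP minus CMP held 0 by limma, where 13.4% and 17% of all genes were called, and by the probe sets that represent them 0 members reached an unadjusted p under 0.05 in either. Counted by probe set, HSC minus MEP held 5 calls of 17 (4 lower and 1 higher, 32.7% of all probe sets called), HSC minus GMP 5 (40.9%), MEP minus GMP 3 (26.4%) and CMP minus GMP 2 (16.2%), the last 3 all lower. HSC minus CMP and MEP minus CMP held 0 (12.8% and 15.9%), with 3 and 2 at an unadjusted p under 0.05. Those added to the gene calls included 1416146_at of Hspa4, lower in HSC than in MEP (-0.54 ± 0.11) and GMP (-0.54 ± 0.10), and 1427464_s_at of Hspa5, lower in CMP than in GMP (-0.88 ± 0.25).

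Partners of the chaperone cycle were read in L-GMP against GMP from lists chosen with earlier results of these data known. In that comparison 33.5% of all tested genes were called, 18.3% lower and 15.2% higher. Of 20 tested DnaJ co-chaperones 2 rose and 5 fell, with a median log2 change of -0.35. Dnaja3, the mitochondrial partner of Hspa9, fell by 0.87 ± 0.22, and Dnajb11, which works with Hspa5, fell by 0.57 ± 0.14, whereas Dnajc10, a reductase of the endoplasmic reticulum, rose by 0.68 ± 0.13. Of 11 exchange factors and regulators 0 rose and 4 fell. In both lists the part called in either direction lay near the share over all genes. Bag2, an inhibitor of the ligase CHIP, fell by 1.35 ± 0.17, Hspbp1, an exchange factor, by 0.86 ± 0.17, and Grpel1, the exchange factor of mitochondrial Hsp70, by 0.44 ± 0.10.

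Of 3 further Hsp70 and Hsp110 genes tested, 2 fell, which were Hsph1, a heat-inducible Hsp110 (-1.74 ± 0.38, adjusted p = 0.00122), and Hyou1, its relative in the endoplasmic reticulum (-0.69 ± 0.19). Of 11 tested heat shock response genes 8 fell and 0 rose, with a median of -0.43. Beside Hsph1 these included Fkbp4, a co-chaperone of Hsp90 (-1.33 ± 0.15), and the mitochondrial chaperonin partners Hspe1 (-1.0 ± 0.14) and Hspd1 (-0.73 ± 0.12). Dnajb1, a heat-inducible partner of cytosolic Hsp70, stood at -0.14 ± 0.23 (adjusted p = 0.691).

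Of 14 mitochondrial folding and import genes 10 fell and 0 rose (median -0.42), among them Trap1, the mitochondrial Hsp90 (-0.95 ± 0.09), and Clpp, a matrix protease (-0.93 ± 0.12). Of 24 endoplasmic reticulum folding and unfolded protein response genes 7 fell and 3 rose against GMP (median -0.25), and Manf, a secreted factor induced by stress there (-0.96 ± 0.14), and Pdia6, a disulfide isomerase (-0.88 ± 0.16), were among those that fell. Against the other sorts the same list gave other counts, with 12 higher and 3 lower against HSC, 13 higher and 1 lower against MEP, and 7 higher and 1 lower against CMP. Shares called among all genes are those given above for each comparison. The mean level of the monocyte and macrophage list was 8.81 to 9.13 in L-GMP, against 8.38 to 8.45 in GMP, and 0 of its 10 genes were at the floor in all arrays of either group (4 rose and 1 fell). The T and NK cell list lay at 6.76 to 7.21 in L-GMP, against 8.13 to 8.52 in GMP. Of its 4 tested genes 3 fell (median -1.24). These were Cd27 (8.98 in GMP and 5.33 in L-GMP), Gzmb (7.05 and 5.31) and Nkg7 (10.78 and 10.04). Cd27 averaged 10.13 in HSC, and Cd3e averaged 6.64 in GMP and 7.15 in L-GMP. Of 7 genes of this list measured, 1 (Cd3g) was at the floor on all arrays of L-GMP and of GMP. Against HSC 8 of the 10 monocyte and macrophage genes rose and 1 fell (median 1.97). Of 8 erythroid genes 7 fell and 1 rose against MEP (median -2.57), and 4 fell and 1 rose against CMP (median -0.98). The part of these lists in the members' changes was not tested.

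In the transduced experiment the question was which genes differ in GMP that express MLL-AF9. Of the 8 members 7 were tested, and 1, Hspa2, rose, where 0.0276% of 7235 genes were called, 0.0138% higher and 0.0138% lower. Hspa2 lay at 10.26, 11.04 and 10.65 in MLL-AF9 and at 7.89, 8.25 and 8.29 in GFP arrays. The groups did not overlap, which held for 17.5% of all genes. The change was 2.50 ± 0.22 (SE), or 5.66-fold, with an adjusted p of 0.0382. With any 1 of the 6 arrays left out it was 2.31 to 2.70 and not called (adjusted p = 0.0552 to 0.334). Without a filter on low values its adjusted p was 0.311. With the replicate number as a block its adjusted p was 0.00279, and 1.74% of all genes were called. Whether the numbers pair these arrays is not settled.

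Hspa1b was at 10.54, 10.58 and 10.31 in MLL-AF9 and at 9.42, 9.91 and 9.75 in GFP arrays, also without overlap. Its change was 0.78 ± 0.16 with an adjusted p of 0.323, and the other 2 Hspa1b probe sets had changes of 0.90 (1427127_x_at) and 0.72 (1427126_at, below the filter) with no overlap. Hspa1a did not pass the filter, at 7.93, 7.82 and 7.07 in MLL-AF9 and 7.42, 7.38 and 7.55 in GFP. The inducible pair therefore gave no called change in this experiment.

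For the other constitutive members the changes were 0.03 for Hspa8, 0.15 for Hspa4 (here represented by 1416146_at), -0.02 for Hspa14, -0.13 for Hspa5 and 0.25 for Hspa9, with adjusted p of 0.605 to 0.972. Hspa9 averaged 12.30 ± 0.07 in MLL-AF9 and 12.05 ± 0.25 in GFP (SD, n = 3 each), and the groups overlapped. None of the 15 kept member probe sets was called when each probe set was tested on its own by limma, where 1 of 10526 was called (0.0095%), and 3 of the 15 had an unadjusted p under 0.05. Of the 6 partner lists 0 genes were called by limma, with or without the replicate block. At an unadjusted p under 0.05 there were 1 of 12 heat shock response, 4 of 24 endoplasmic reticulum and 1 of 14 mitochondrial genes and 0 in the other lists, against 739 of all 7235 genes. Hsph1 stood at 0.43 ± 0.26 (adjusted p = 0.603) and Clpp at 0.50 ± 0.18 (adjusted p = 0.462).

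Other lists moved with these groups. All 9 tested monocyte and macrophage genes had log2 changes under 0 (median -1.02), as did all 6 neutrophil genes (-1.27) and 16 of 18 immediate early genes (-1.04). None of these was called in the unblocked fit, where 6, 2 and 9 had an unadjusted p under 0.05, and 5, 2 and 4 were called lower with the replicate block. The mean level of the monocyte and macrophage list was 10.10 to 10.92 in MLL-AF9, against 11.21 to 12.03 in GFP, and 0 of its 10 genes were at the floor in all arrays of either group. Their part in the changes of Hspa2 and Hspa1b was not tested.

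**Figure D5:**
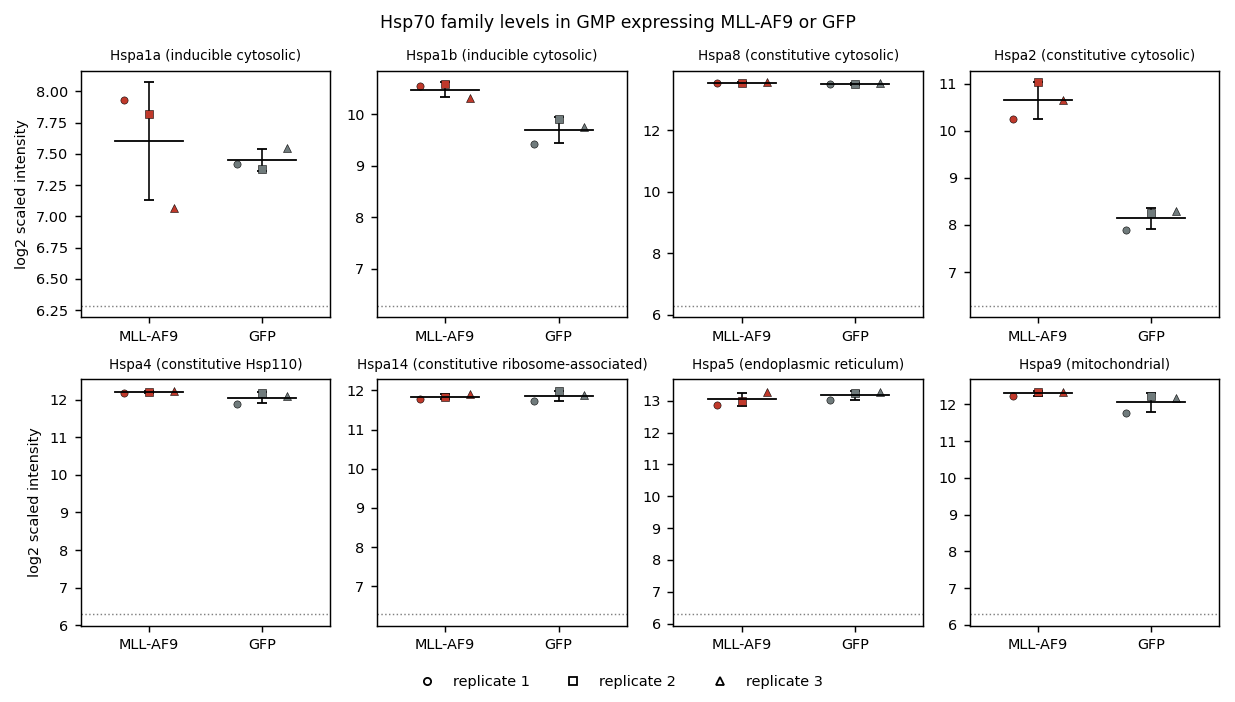
Level (log2 scaled intensity) of each member in GMP expressing MLL-AF9 (left in each panel) or GFP, with arrays as points, means with SD as lines and the floor of 6.29 as the dotted line. Hspa2 lies at 10.26 to 11.04 in MLL-AF9 and 7.89 to 8.29 in GFP, and the inducible Hspa1b at 10.31 to 10.58 in MLL-AF9 and 9.42 to 9.91 in GFP.

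The genes whose pattern over the 22 sorted arrays was most like that of a member were taken as the 5 of highest Pearson r among all tested genes. For Hspa1b they were Hspa1a (0.98), Ubap2l (0.93), Ccnd2 (0.93), Galnt7 (0.92) and Ppargc1b (0.92), and after group means were removed r was 0.88, 0.76, 0.56, 0.44 and 0.27. For Hspa2 they were G0s2 (0.94), Vps53, Vps26b, Dgat1 and Daglb (0.91 to 0.92). For Hspa9 they were Thap12 (0.97), Adsl (0.96), Gcsh, Fbl and Ptcd3 (each 0.95). For Hspa5 they were Lman2 (0.76), Yrdc, Vamp3, Cxcl2 and Tacc2 (0.73 to 0.75). These are descriptions over arrays that share groups and preparation, and they carry no test.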

How the data were processed

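The 28 Affymetrix arrays hold 1 sample each. The authors deposited linear probe set intensities, and MAS5 is the tool named in the submitters' processing notes, without a version. Each array held 186 to 411 intensities at or below 0, and how these arose is not given in the sources used here. Depth has no counterpart on arrays, and their number, 3 to 6 per group, limits precision.

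From these values 64 control probe sets were removed. Within each experiment arrays were scaled to a common mean after trimming 2% at each end, with factors of 0.923 to 1.12. Values were floored at the 25th percentile (5.27 on the log2 scale in the sorted and 6.29 in the transduced experiment) and taken to log2. Probe sets above the experiment's median on at least 3 arrays were kept, and where a gene had several, the one of highest mean stood for it. This gave 8422 genes in the sorted and 7235 in the transduced experiment. A change in the total RNA of a cell cannot be seen after scaling.

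Groups came from the sample titles. The comparisons used two-sided tests of limma 3.58.1 under R 4.3.3 (functions lmFit and eBayes), in 1 fit of 22 sorted arrays with 10 contrasts and 1 fit of 6 transduced arrays. P-values were adjusted by Benjamini-Hochberg over all genes tested, and calls were made at an adjusted p under 0.05. Of these steps, the fit was run on simulated data with known changes, and the trimmed mean was checked on a small known table. The floor, the filter and the choice of probe set were not run on simulated data.

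Among the transduced arrays 3 of 3 same-numbered pairs correlated above 0.1 after group means were removed (r = 0.379 to 0.596 across genes). Pairs with different numbers there had r of -0.617 to 0.474, so whether the numbers pair these arrays is not settled. Among the sorted arrays 18 of 37 same-numbered pairs were above 0.1 (r = -0.493 to 0.528). Pairs with different numbers there had r of -0.439 to 0.526, so pairing of the sorted arrays is not settled either. Alternatives changed the floor, filter, scaling, probe set, covariate, samples in the fit, replicate block and single arrays.

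Members and gene lists were chosen with earlier results of these data known. Named genes are all members, up to 4 called genes of largest change per partner list in L-GMP minus GMP, up to 2 per list in MLL-AF9 minus GFP, and the 5 genes most like a member. Dnajb1, Fos, Jun, Egr1 and the T and NK cell genes are outside that rule and were named after their values were seen. Of the probe sets, 691 name several genes and 1555 none, and neither kind was used. Promoter sequences are RefSeq's (GRCm38.p6).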

Additional observations from a re-analysis of the deposited data

Results flagged for a closer look

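In groups of 4 to 6 arrays, the highest or lowest array was compared with the gap to its nearest neighbour relative to the group's range. Of 32 groups examined (8 members in 4 sorts), 4 had an array that stood apart by Dixon's criterion, and chance gives about 1 in 20. Hspa4 did so in 3 groups, all by 1435194_at. Replicate 6 of L-GMP was at 8.0, the other 5 arrays being at 9.85 to 10.36. Replicate 4 of HSC was at 11.48, above the others at 11.14 to 11.23. Replicate 4 of CMP was at 11.63, above the others at 11.26 to 11.31. For Hspa14, replicate 3 of CMP was at 9.37, below the others at 9.54 to 9.56.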

How the results depend on the processing

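The number of Hsp70 members called in L-GMP against each normal sort was 6 or 7 against GMP, 7 or 8 against HSC, 6 against MEP and 5 or 6 against CMP when single arrays were left out. The changes of Hspa1a, Hspa1b and Hspa9 in L-GMP were called against all 4 sorts under every alternative run, and so was that of Hspa4 by 1435194_at. By 1416146_at Hspa4 was not called against GMP, MEP or CMP and was higher against HSC (0.36). The 6 Hsp70 calls among the normal sorts became 3 with a floor at the 50th percentile, 3 without replicate 2 of every group and 3 without replicate 3 of every group, and leaving out single arrays gave 4 to 9. Of the 48 differences there, 37 passed under no setting and 5 passed only under an alternative. The single Hsp70 call in MLL-AF9 minus GFP became 0 without a filter, without further scaling, with every probe set, with the 3'/5' covariate and in each fit without 1 array (0 to 0). The causes were not tested.

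Some differences that were not called changed sign. Hspa14 in L-GMP minus MEP was 0.04 and became -0.013 with the 3'/5' covariate and -0.13 without replicate 2 of every group, and -0.14 to 0.16 without single arrays. Hspa5 in L-GMP minus MEP was -0.12 and became 0.13 with the covariate and 0.17 without replicate 3 of every group, and -0.26 to 0.11 without single arrays. Hspa14 in MLL-AF9 minus GFP was -0.02 and lay between -0.093 and 0.036 without single arrays. With the 3'/5' covariate the call of Hspa5 against HSC was lost (-0.31, adjusted p = 0.247), as was that of Hspa8 (-0.23, adjusted p = 0.0868). With only the 2 groups of a contrast in the fit, Hspa8 was not called against HSC (adjusted p = 0.0533) or CMP (adjusted p = 0.0620). Without further scaling the median of all genes in HSC minus MEP was 0.11, and Hspa9 there was -0.31 (adjusted p = 0.151). With the replicate block in the transduced fit Hspa2 had an adjusted p of 0.00279 and Hspa1b of 0.0588, and 126 genes were called in place of 2. Whether the numbers pair the sorted or the transduced arrays is not settled. In the sorted fit the replicate block gave Hspa2 in L-GMP minus GMP a change of 0.89 (adjusted p = 0.00695). It gave Hspa8 in L-GMP minus CMP an adjusted p of 0.0574 and Hspa5 in CMP minus GMP one of 0.0418. It changed no other member call in that fit.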
